A study of Mus musculus with 5 samples.

Results

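The acyl-CoA thioesterases (Acot genes) were followed in mouse liver across a high-fat, high-fructose (HFHFr) diet and feeding with all-trans retinoic acid. The members were 10 listed genes, Acot1, Acot2, Acot3, Acot4, Acot6, Acot7, Acot8, Acot9, Acot12 and Acot13, each found by its own gene name on the array. Of these, 9 were found, with 12 of the 41174 non-control probes and 9 of the 28632 gene names of the array. Acot13 had no probe under that name. Its probe carries the older name Them2 and was reached through its RefSeq accession, so its values are given apart from the 9. There were 7 members with 1 probe each, Acot4 had 2 and Acot6 had 3.

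All groups were male C57BL/6J mice of 25 weeks. Control mice were untreated. HFHFr-F mice stayed on the HFHFr diet for 20 weeks and had severe insulin resistance, per the labels. HFHFr-N mice had 16 weeks of that diet and then 4 weeks of normal diet, and were insulin resistant. HFHFr-NA mice had the same 16 weeks and then received all-trans retinoic acid in a normal diet for 4 weeks, and had recovered from insulin resistance. HFHFr-FA mice had the 16 weeks and then 4 weeks of HFHFr diet with all-trans retinoic acid. They were not insulin resistant and had slight liver steatosis. All-trans retinoic acid is the form of vitamin A that binds the retinoic acid receptors. Liver RNA of 5 mice was pooled in each group and hybridised to 1 array, so no value has a replicate, a test between groups was not possible, and every difference given is one between single pools.

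The error that could be measured was the spread of spots within an array. It came from those of 245 probes spotted 10 times that were well above background on the array, 42 to 56 per array and signal range. On the log2 scale its median standard deviation was between 0.0434 and 0.0576 over the arrays for signals over 1000, between 0.0653 and 0.0782 for signals of 100 to 1000, and between 0.157 and 0.214 for dimmer signals. This spot SD leaves out the mice, the RNA extraction and the difference between arrays. A gap between groups is called apart below when it is over 2 spot SDs of the difference. HFHFr-FA was alone on slide 2 and all other groups shared slide 1, so in any comparison with HFHFr-FA the slide and the treatment cannot be told apart. Between 46.7% and 49.4% of spots were well above background on each array and no spot was saturated. All 12 hepatocyte markers with a probe, such as albumin and the apolipoproteins, were well above background on all 5 arrays.

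Acyl-CoA thioesterases split the thioester bond of an activated fatty acid or other acyl group and release the free acid and coenzyme A. They work against the acyl-CoA synthetases, and different members act in the cytosol, the mitochondrial matrix or the peroxisome. Acot1 to Acot6 are close relatives of the type I class, which lie side by side in the mouse genome, and several of them are known targets of the fatty acid receptor PPARA in liver. Acot7 to Acot13 belong to the type II class, which has another fold.

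Relatives of the type I class are close in sequence, so the probes are shown to let their letters be compared. The first 30 of the 60 bases of the probe that stands for each clustered member, and of the Acot9 probe, are given here 5′ to 3′ as in the deposited scanner files.
Acot1: tatcaaaatagtgctgattcaagggctggg
Acot2: ggggaaacctcatatatattatcacaatgt
Acot3: tggatcttctaaacaatcctttggaaggac
Acot4: tgctggatgacatgaaattcatgtttaggg
Acot6: caagccagtagctttcacttctcttttctc
Acot9: gtatgcttcacccaggacaattacatccaa
Among 17 probes of the members and of Acot5, Acot10, Acot11 and Acot13, the whole 60-base probes made 131 pairs of different genes, and the longest run of bases shared in any pair was 9. The Acot9 probe and that of Acot10, its closest relative, shared a run of at most 6. One other probe of the array shared a run of 16 bases with a member's probe, the detected Acot6 probe, and it carries the name AK018014. These comparisons are between probes. Whether a probe also takes up transcripts of a relative was not tested.

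The probes of 5 members lie together on chromosome 12 in the mm9 build, which the files give. In map order they are Acot2 at chr12:85334071-85334130, Acot1 at chr12:85358452-85358511, Acot4 at chr12:85384821-85384880 with its other probe at chr12:85384162-85384221, Acot3 at chr12:85399588-85399647 and the detected Acot6 probe at chr12:85451951-85452010. The other members lie elsewhere, Acot7 at chr4:151645802-151645861, Acot8 at chr2:164618360-164618419, Acot9 at chrX:151731124-151731183 and Acot12 at chr13:91925586-91925645. Whether a probe lies in an exon of one transcript or another, or in coding or untranslated sequence, was not determined.

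All 9 members were well above background on all 5 arrays, as were 13131 genes in all. Both other Acot6 probes, at chr12:85442713-85442772 and chr12:85450959-85451018, were not well above background on any array. Signals below are processed scanner signals, with background taken off, in arbitrary units. They can be compared between arrays only after scaling, and not between probes. For the scaling, each signal was divided by the 75th percentile of its array, 173.9 in control, 222.9 in HFHFr-F, 211.7 in HFHFr-FA, 172.5 in HFHFr-N and 179.8 in HFHFr-NA. Log2 ratios and folds are of the scaled signals.

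The 7 comparisons made leave out HFHFr-NA against HFHFr-F, and HFHFr-FA against HFHFr-N or HFHFr-NA. In them Acot1, the cytosolic long-chain thioesterase, was the only member of the 9 that was at least 2-fold apart. Its signal was 24508 in control, 13803 in HFHFr-F, 33146 in HFHFr-FA, 18599 in HFHFr-N and 18711 in HFHFr-NA. After scaling, HFHFr-FA was highest, then control, then HFHFr-N with HFHFr-NA, and HFHFr-F was lowest. Every neighbouring pair in that order was apart except HFHFr-N and HFHFr-NA, which differed by 0.05 on the log2 scale. Continued HFHFr diet was 2.28-fold lower than control, a log2 ratio of -1.19 with a spot SD of the difference of 0.073. Only 2.0% of measured genes had a lower ratio in that comparison. Retinoic acid on the HFHFr diet was 2.53-fold higher than the diet alone, a log2 ratio of 1.34 with a spot SD of 0.063, and 98.9% of genes had a lower ratio. HFHFr-FA against control stood at 0.15. HFHFr-N lay between HFHFr-F and control, with a log2 ratio of 0.80 against HFHFr-F and of -0.39 against control. Retinoic acid on the normal diet left a ratio of -0.05, within 2 spot SDs of 0. The ratio for retinoic acid was therefore 1.39 higher on the HFHFr diet than on the normal diet, with a spot SD of 0.091. This difference could not be tested, and it cannot be told apart from the slide, on which HFHFr-FA was alone.

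Acot2, the mitochondrial matrix thioesterase next to Acot1 on the chromosome, had another order. Its signal was 231 in control, 422 in HFHFr-F, 450 in HFHFr-FA, 192 in HFHFr-N and 150 in HFHFr-NA. Both groups that ended on the HFHFr diet were high and were within 2 spot SDs of each other, and control, HFHFr-N and HFHFr-NA followed, each apart from the next. The log2 ratio was 0.51 in HFHFr-F against control and 0.68 in HFHFr-FA against control. It was -0.26 in HFHFr-N against control, -0.42 in HFHFr-NA against HFHFr-N and -0.67 in HFHFr-NA against control, with spot SDs of 0.098 to 0.106. Acot2 thus had its 1.35 log2 units of range between HFHFr-FA and HFHFr-NA, while Acot1 had its 1.34 between HFHFr-FA and HFHFr-F. On the log2 scale Acot2 stood at 0.92 in HFHFr-F, 1.09 in HFHFr-FA and -0.27 in HFHFr-NA. HFHFr-NA was therefore more than 2-fold below both, in pairs that are not among the 7 comparisons.

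**Figure D1:**
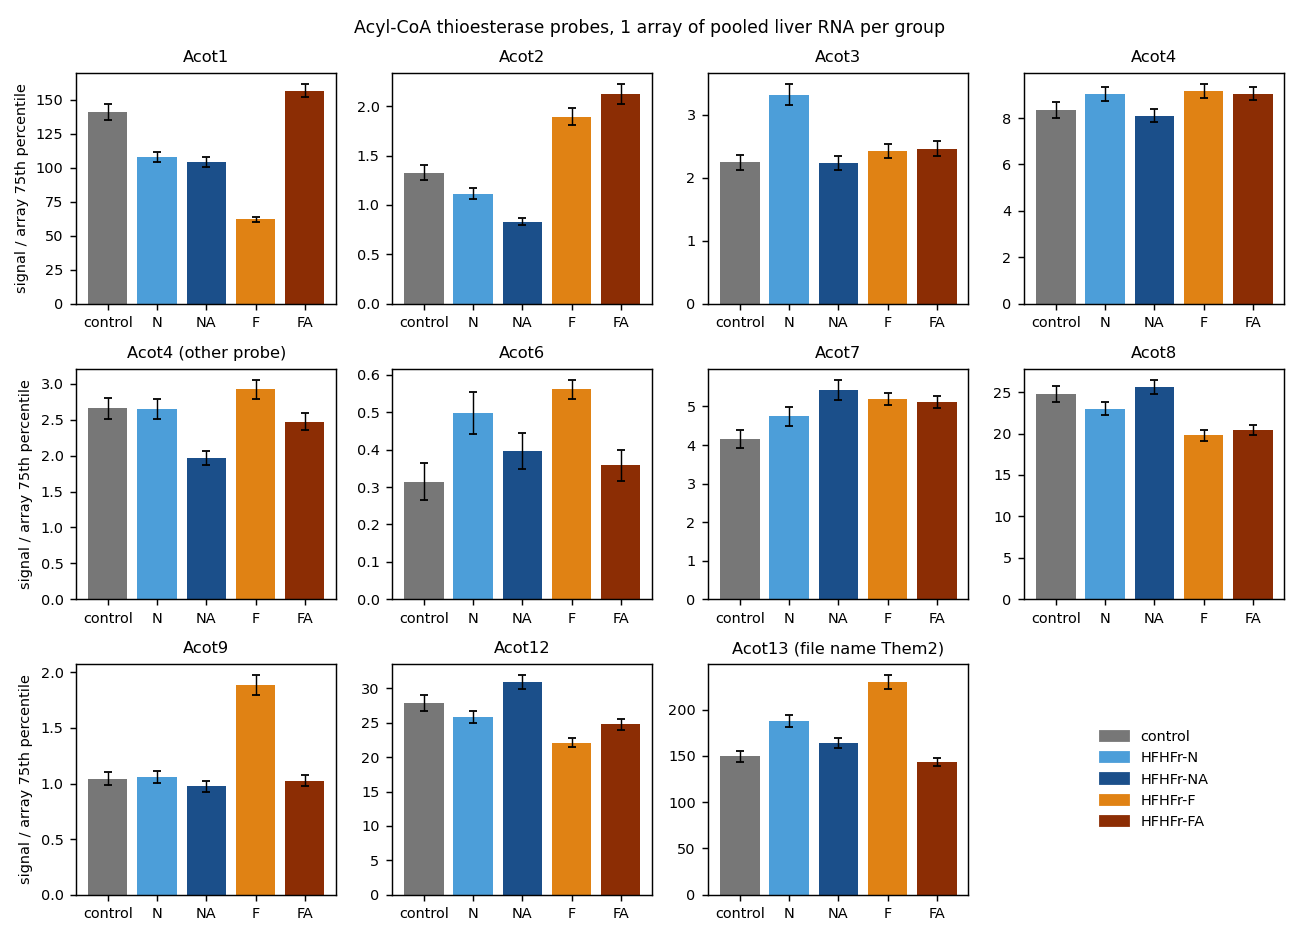
Signal of each detected member probe on the 5 arrays, divided by the array's 75th percentile, each panel with its own linear axis from 0. Bars are 1 array each and whiskers are 1 spot SD for the signal range; Acot1 is lowest in HFHFr-F, Acot2 is high in both groups that ended on the HFHFr diet, and Acot9 is high in HFHFr-F.

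Acot9, a mitochondrial type II thioesterase, was higher in HFHFr-F than in all other groups. Its signal was 182 in control, 420 in HFHFr-F, 217 in HFHFr-FA, 183 in HFHFr-N and 175 in HFHFr-NA. The 4 other groups were within 2 spot SDs of their neighbours in the order, and HFHFr-F was apart above them. The log2 ratio was 0.85 in HFHFr-F against control, -0.88 in HFHFr-FA against HFHFr-F and -0.83 in HFHFr-N against HFHFr-F, with spot SDs of 0.102, 0.093 and 0.097. HFHFr-N against control was 0.02 and HFHFr-FA against control -0.02. None of these reached 2-fold.

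Acot6, a peroxisomal thioesterase for branched acyl-CoA, was dim and was detected by 1 of its 3 probes. An undetected probe assigned to the same transcript as the detected one read 3.28 in control and 3.48 in HFHFr-F. Whether the detected signal is that of Acot6 was not tested. The signal of the detected probe was 54.7 in control, 125 in HFHFr-F, 75.7 in HFHFr-FA, 85.9 in HFHFr-N and 71.1 in HFHFr-NA. No neighbouring pair in the order was apart, although HFHFr-F against control, at 0.83 with a spot SD of 0.22, and HFHFr-FA against HFHFr-F, at -0.65 with a spot SD of 0.17, each exceeded 2 spot SDs. HFHFr-N against control was 0.66 with a spot SD of 0.26. For the 8 spots around the Acot6 spot, the deviation on the HFHFr-FA array was taken from each spot's own mean over the other arrays. Its median was -0.72 on the log2 scale, the lowest around any member spot, and the deviation of Acot6 there was -0.27. Their part in the Acot6 value was not tested. With normexp background correction and quantile normalization together, the ratio was 0.43 in HFHFr-F against control, -0.41 in HFHFr-FA against HFHFr-F and 0.32 in HFHFr-N against control.

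Acot3, a peroxisomal long-chain thioesterase, was high in HFHFr-N alone. Its signal was 389 in control, 539 in HFHFr-F, 521 in HFHFr-FA, 571 in HFHFr-N and 401 in HFHFr-NA. After scaling, HFHFr-N was apart above the 4 other groups, whose neighbours in the order were all within 2 spot SDs. The log2 ratio was 0.57 in HFHFr-N against control and -0.57 in HFHFr-NA against HFHFr-N, with spot SDs of 0.106 and 0.098. In HFHFr-F against control it was 0.11.

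Acot4, the peroxisomal thioesterase for succinyl-CoA, varied little on its brighter probe. That probe read 1450 in control, 2043 in HFHFr-F, 1917 in HFHFr-FA, 1558 in HFHFr-N and 1457 in HFHFr-NA, and its scaled values spanned 0.18 log2 units with all neighbours within 2 spot SDs. The other probe read 463, 651, 524, 457 and 354 in the same order and spanned 0.57 log2 units, with HFHFr-NA apart below the rest. The probes differed most in HFHFr-NA against HFHFr-N, at -0.16 and -0.43, and in HFHFr-NA against control, at -0.04 and -0.43. For HFHFr-F against control they gave 0.14 and 0.13.

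The remaining 3 members stayed within 0.5 log2 units over the arrays. Acot12, the cytosolic acetyl-CoA thioesterase of liver, read 4849 in control, 4929 in HFHFr-F, 5239 in HFHFr-FA, 4448 in HFHFr-N and 5551 in HFHFr-NA. Acot8, a peroxisomal thioesterase with a broad range of substrates, read 4310, 4407, 4333, 3971 and 4612. Both had a log2 ratio of -0.33 in HFHFr-F against control, with a spot SD of 0.073, and both were highest in HFHFr-NA after scaling. For Acot12, HFHFr-F was apart below HFHFr-FA, the next in the order, and for Acot8, HFHFr-F and HFHFr-FA together were apart below HFHFr-N. Acot7, a cytosolic thioesterase best known from brain, read 723, 1158, 1082, 819 and 977 in the same order of groups. Control was lowest for Acot7 after scaling, and no neighbouring pair was apart. HFHFr-NA against control was 0.39 and HFHFr-F against control 0.32.

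Acot13, a thioesterase found at mitochondria and known to bind the phosphatidylcholine transfer protein, was read by the probe at chr13:24909838-24909897. It gave 25969 in control, 51188 in HFHFr-F, 30386 in HFHFr-FA, 32341 in HFHFr-N and 29409 in HFHFr-NA. HFHFr-F was apart above HFHFr-N, and HFHFr-N above HFHFr-NA, while HFHFr-NA, control and HFHFr-FA were within 2 spot SDs of their neighbours. The log2 ratio was 0.62 in HFHFr-F against control and -0.68 in HFHFr-FA against HFHFr-F, opposite in sign to those of Acot1.

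Read by comparison, the members had ratios of both signs each time. In HFHFr-F against control, 0 of 9 members were at least 2-fold higher and 1 was lower, beside 5.38% and 3.23% of 14631 measured genes. The members ran from -1.19 for Acot1 to 0.85 for Acot9, 6 above 0 and 3 below, with a median of 0.14 beside -0.08 over all genes. In HFHFr-FA against HFHFr-F, 1 member was higher and 0 were lower, beside 2.78% and 2.81% of 14928 genes. There the members ran from -0.88 for Acot9 to 1.34 for Acot1, with a median of 0.02 beside 0.03. With 9 members, 1 past the threshold is a count too small to set against shares of this size.

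Among the comparisons made of the groups that returned to normal diet, no member was 2-fold apart. In HFHFr-N against control the shares over all 14507 genes were 1.14% higher and 0.834% lower, and the members ran from -0.39 for Acot1 to 0.66 for Acot6. For HFHFr-NA against HFHFr-N they were 1.51% and 1.33% of 14875 genes, with 3 members above 0 and 6 below, from -0.57 for Acot3 to 0.26 for Acot12. Against HFHFr-F, HFHFr-N had 2.14% of 14801 genes higher and 3.64% lower, and the members ran from -0.83 for Acot9 to 0.80 for Acot1. HFHFr-NA against control had 2% of 14728 genes higher and 1.45% lower, and the members ran from -0.67 for Acot2 to 0.39 for Acot7. In HFHFr-FA against control no member was 2-fold apart either, beside 4.49% higher and 1.92% lower of 14797 genes, with members from -0.28 for Acot8 to 0.68 for Acot2. Several of these comparisons share an array, so their ratios are not independent of each other.

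**Figure D2:**
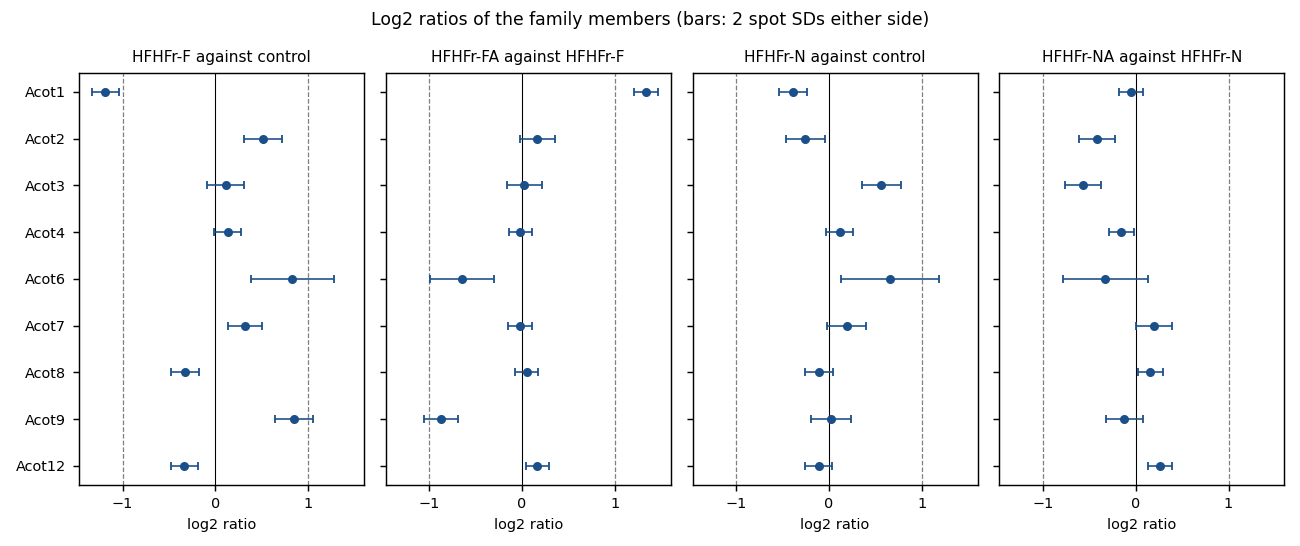
Log2 ratios of the 9 members found by name, each probe that stands for the gene, in 4 comparisons; whiskers are 2 spot SDs either side and dashed lines mark 2-fold. Acot1 alone lies past the dashed lines, at -1.19 in HFHFr-F against control and at 1.34 in HFHFr-FA against HFHFr-F.

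Along chromosome 12 the clustered genes had unlike ratios. In map order, the log2 ratio in HFHFr-F against control was 0.51 for Acot2, -1.19 for Acot1, 0.14 for Acot4, 0.11 for Acot3 and 0.83 for Acot6. Acot1 and Acot2, whose probes are 24.4 kb apart, were on opposite sides of 0. In HFHFr-FA against HFHFr-F the same genes gave 0.16, 1.34, -0.02, 0.02 and -0.65. Acot5, the peroxisomal medium-chain thioesterase between Acot3 and Acot6, was well above background in HFHFr-F alone, with a signal of 40.1. It was at least 2.08-fold higher there than in control and at least 2.38-fold higher than in HFHFr-FA, set against the lowest signal well above background on the other array. Its probe shared a run of 16 bases with 2 probes of Cox18, a mitochondrial assembly factor gene, and the part of that in its signal was not tested. A probe between Acot3 and Acot5 that the files name only by a sequence identifier, BB505010, was picked out after its values were seen. Its signal was 349 in control, 727 in HFHFr-F, 619 in HFHFr-FA, 856 in HFHFr-N and 609 in HFHFr-NA. Its log2 ratio was 1.31 in HFHFr-N against control, where Acot3 had 0.57, and -0.55 in HFHFr-NA against HFHFr-N, where Acot3 had -0.57. Elsewhere the probes were less alike. In HFHFr-F against control BB505010 had 0.70 and Acot3 0.11, and in HFHFr-FA against control they had 0.54 and 0.14. In HFHFr-NA against control they had 0.75 and -0.006.

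**Figure D3:**
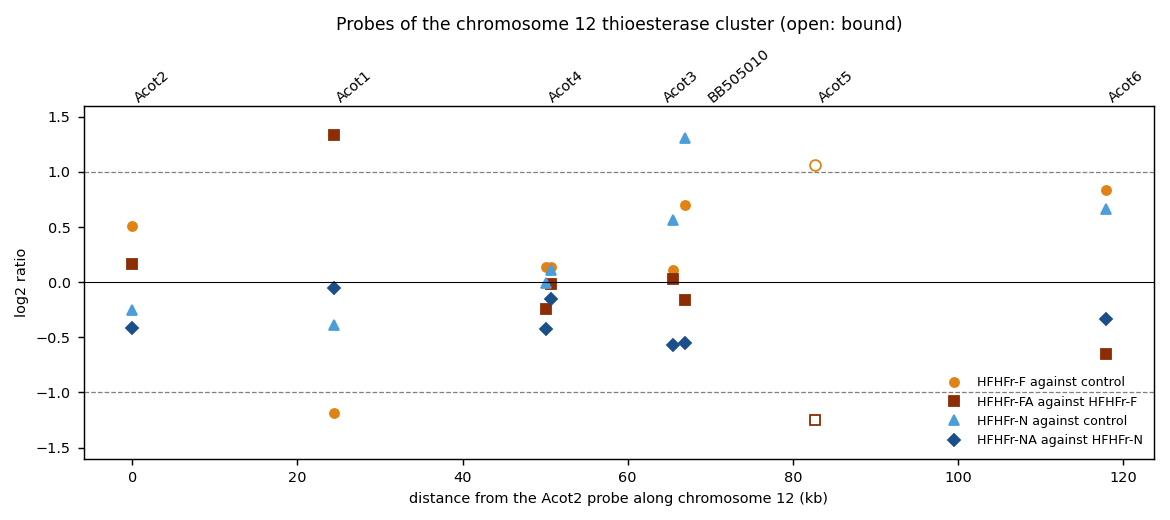
Log2 ratios of detected probes in the chromosome 12 cluster against distance from the Acot2 probe in kb, over a span of 117.9 kb, in 4 comparisons; open symbols are bounds and dashed lines mark 2-fold. Acot1, at 24.4 kb, has the lowest circle and the highest square, and its neighbours Acot2 and Acot4 do not follow it.

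Acot10 and Acot11, type II relatives outside the member list, had their highest value in HFHFr-F, for Acot11 within 2 spot SDs of HFHFr-N. Acot10, the mouse relative of Acot9, read 53.1 in control, 113 in HFHFr-F, 59.5 in HFHFr-FA, 48.2 in HFHFr-N and 41.3 in HFHFr-NA. Its log2 ratio was 0.74 in HFHFr-F against control and -0.86 in HFHFr-FA against HFHFr-F, beside 0.85 and -0.88 for Acot9. Acot11, the thioesterase known from brown fat, read 38.3, 119, 58.0, 76.3 and 64.5 in the same order. It was 2.43-fold higher in HFHFr-F than in control and 2.01-fold higher in HFHFr-N than in control, with a spot SD of 0.22 and 0.26 on the log2 scale, since it was dim. The other Acot11 probe, at chr4:106419288-106419347, was not well above background on any array and gave no ratio.

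Marker genes of other liver cell types also differed between the groups. The 12 Kupffer cell and macrophage markers were well above background on all 5 arrays, and their summed scaled signal was 124 in control, 240 in HFHFr-F, 225 in HFHFr-FA, 155 in HFHFr-N and 115 in HFHFr-NA. Their median log2 ratio was 0.88 in HFHFr-F against control, with 3 of 12 at least 2-fold higher, and 0.07 in HFHFr-FA against HFHFr-F. Acot2 had 0.51 and 0.16 in those comparisons, and both were lowest in HFHFr-NA. In HFHFr-N against control they had opposite signs, with a median of 0.20 for these markers and -0.26 for Acot2. In HFHFr-NA against control the values were -0.17 and -0.67. Markers of lipid-associated macrophages were well above background for 9 of 10 genes in HFHFr-F and for 6 to 8 elsewhere, with Gpnmb, Itgax, Mmp12 and Fabp5 not well above background in control and Fabp5 in no group. Their summed signal was 84.6 in control, 189 in HFHFr-F, 94.9 in HFHFr-FA, 97.9 in HFHFr-N and 101 in HFHFr-NA. Their median ratio was 2.73 in HFHFr-F against control and -0.75 in HFHFr-FA against HFHFr-F, where Acot9 had 0.85 and -0.88. In HFHFr-FA against control it was 0.93, with 3 of 8 measured at least 2-fold higher, where Acot9 had -0.02. In HFHFr-N against HFHFr-F the values were -2.55 and -0.83. Cholangiocyte markers had medians of 1.19 in HFHFr-F against control and -0.93 in HFHFr-FA against HFHFr-F. Of 7 measured, 4 were at least 2-fold higher in HFHFr-F than in control. They summed to 9.11 in control, 62.8 in HFHFr-F, 11.7 in HFHFr-FA, 11.2 in HFHFr-N and 8.69 in HFHFr-NA, and Cftr and Muc1 were not well above background in any group. Spp1 stands in both this list and that of lipid-associated macrophages. It made up most of the cholangiocyte sum on every array, with a log2 scaled signal of 5.92 in HFHFr-F and 2.94 in control. Each sum held only the genes well above background on that array. For cholangiocytes these were 4 in control, 7 in HFHFr-F, 5 in HFHFr-FA, 5 in HFHFr-N and 5 in HFHFr-NA. Stellate cell markers had medians of 0.84 and 0.04, with 5 of 10 measured at least 2-fold higher in HFHFr-F than in control, and summed to 77.1, 115, 115, 88.3 and 103 in the order of groups just given. The medians in HFHFr-F against control and in HFHFr-FA against HFHFr-F were 0.03 and 0.38 for endothelial, 0.46 and 0.59 for T and NK cell, -0.09 and 0.18 for B and plasma cell, 1.57 and 0.51 for neutrophil, 0.88 and -0.78 for erythroid and 1.07 and -0.19 for adipocyte markers, of which 2 to 11 genes were measured per list and comparison. The 12 hepatocyte markers summed to 5962, 5118, 5125, 6061 and 6506, with a median ratio of -0.27 in HFHFr-F against control. The part of cell composition in the values of Acot2, Acot9 and Acot1 was not tested, and in bulk liver fewer cells of a type and less RNA per cell cannot be told apart.

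The genes with the profile most like that of a member were sought for the 3 members of widest range, by the root mean square distance between log2 profiles centred over the 5 arrays. For Acot1 they were Fbrs at 0.101, Fcna, which encodes the lectin ficolin A, at 0.127 and the zinc finger gene Zfp707 at 0.129, of 3906 candidates. For Acot2 they were Srpx2 at 0.101, the complement gene and Kupffer cell marker C1qa at 0.109 and Ms4a4d at 0.116, of 3841 candidates. For Acot9 they were Lrp11 at 0.0348, Itm2c at 0.0719 and Ctps, a CTP synthase gene, at 0.0738, of 6652 candidates. No thioesterase was among these 9 genes. Candidates had to be well above background on all 5 arrays, with a range wide enough beside the member's. That left out Acot3, Acot4, Acot7, Acot8 and Acot12 for Acot1 and Acot2, and Acot4, Acot7 and Acot8 for Acot9. Their absence therefore says nothing about the family. A profile of 5 points is matched by many genes, and the arrays are shared by all of them.

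**Figure D4:**
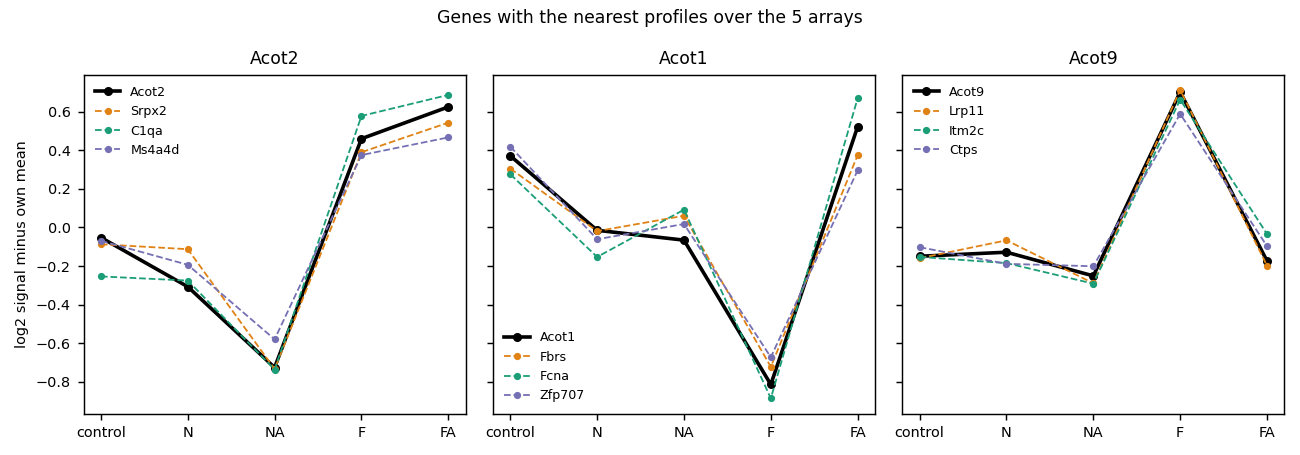
Log2 scaled signal minus the gene's own mean over the 5 arrays, for Acot2, Acot1 and Acot9 (black) and the 3 genes nearest to each (dashed), by group. Acot1 and its nearest genes are lowest in HFHFr-F, Acot2 and its nearest genes are lowest in HFHFr-NA, and Acot9 and its nearest genes are highest in HFHFr-F. The nearest genes were picked for likeness of profile, so these shared positions follow from the selection.

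Lists of enzymes around the family are given here beside the 5.38% of all genes that were at least 2-fold higher and the 3.23% that were lower in HFHFr-F against control. Of 9 measured thioesterases outside the members, 3 were higher and 0 lower in HFHFr-F against control, Acot11, Acot5 and the lysosomal palmitoyl-protein thioesterase Ppt1 at 1.07, with a list median of 0.53. Among 16 measured acyl-CoA synthetases and fatty acid transport proteins, which make the substrates of the Acot enzymes, 1 was higher and 0 were lower in that comparison, the acetyl-CoA synthetase Acss1 at a bound of 2.12 on the log2 scale, with a list median of 0.05. Acss3, a mitochondrial short-chain synthetase, was at 1.02 in HFHFr-N against control and at -2.16 in HFHFr-NA against HFHFr-N. It was dim, with a log2 scaled signal of -3.43 in HFHFr-NA, where the lowest value well above background was -3.75. Of 23 genes of acyl-CoA binding and coenzyme A metabolism, the fatty acid binding protein gene Fabp4 was higher, at 2.04, and Crot, the peroxisomal carnitine octanoyltransferase, lower, at -1.13, in HFHFr-F against control. Of 23 peroxisomal beta-oxidation genes, a list that holds Acot8, 1 was higher and 2 lower there, Crot among them. The gene that was higher was Abcd2, a peroxisomal fatty acid transporter, at 1.93 in HFHFr-F against control and at -0.86 in HFHFr-FA against HFHFr-F. Ehhadh, the peroxisomal bifunctional enzyme, was at -2.25 in HFHFr-F against control and at 1.14 in HFHFr-FA against HFHFr-F, where Acot1 had -1.19 and 1.34. Against control, Ehhadh was still at -1.11 in HFHFr-FA and at -1.10 in HFHFr-N, where Acot1 had 0.15 and -0.39. None of 25 mitochondrial beta-oxidation genes was 2-fold apart in either comparison, with medians of -0.23 and 0.07.

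Genes listed as PPARA targets had ratios of both signs. Of 43 measured, 4 were higher and 6 lower in HFHFr-F against control, with a median of -0.28 beside -0.08 over all genes, and 5 were higher and 0 lower in HFHFr-FA against HFHFr-F, with a median of 0.13 beside 0.03. Over all genes 2.78% were higher and 2.81% lower in that last comparison. Cyp4a31, a fatty acid omega-hydroxylase gene, was at -2.67 and then at 1.44. The pyruvate dehydrogenase kinase gene Pdk4 was higher in both, at 1.03 and 1.58. The hormone gene Fgf21 was at -0.85 and 2.04. Ppara itself was read by a probe spotted 10 times and stood at -0.12 in HFHFr-F against control and at 0.30 in HFHFr-FA against HFHFr-F, smaller ratios than those of Acot1.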

How the data were processed

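Liver RNA of 5 groups was measured on 5 one-colour Agilent arrays, 1 pool of 5 mice each. The authors deposited scanner files that per their headers came from Feature Extraction version 10.5.1.1. The processed intensity of a spot is background-subtracted and detrended, per the file headers, and not scaled between arrays. Deposited mean and local background intensities served an alternative. The deposited value table was, when set against the scanner values, a ratio, the processed intensity over 1 constant for the array (166.9 in control, 214.7 in HFHFr-F, 204.3 in HFHFr-FA, 165.3 in HFHFr-N and 173.0 in HFHFr-NA), uncentred and in the direction of the signal. Its column medians were 0.0700, 0.0675, 0.0721, 0.0738 and 0.0744.

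Here each array's processed signals, without control spots and spots marked as outliers, were divided by their 75th percentile and put on the log2 scale. Probes were named through RefSeq accessions (24844 of 41174), with the others keeping the file's name. The probe with the highest mean signal stood for a gene. A gene was measured when well above background on at least 1 of both arrays, and a dim side was set to the lowest signal well above background there or the probe's own, whichever was higher. Only 1 array per group was available, so differences of at least 2-fold were counted and no test was run. Precision is limited by the number of arrays.

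Named were all members, Acot5, Acot10, Acot11, Ppara, up to 3 genes of largest ratio per pathway list and comparison, and the 3 nearest profiles of the 3 widest-ranging members. There were 6 pathway and 11 marker lists, with 223 of 230 genes matched. Members, lists and comparisons were chosen with earlier results of these data known. Alternatives changed the scaling, background correction, value source, probe rule, dim-probe filter, outlier handling and fold threshold. The ratio computation was tested on simulated data. Work was done in Python 3.11.15 (numpy 2.4.6, pandas 2.3.3) and R 4.3.3 (limma 3.58.1).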

Additional observations from a re-analysis of the deposited data

How the results depend on the processing

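The counts of members at least 2-fold apart were the same in all 7 comparisons under every alternative to the scaling, background correction, value source, probe rule, filter and outlier handling, and with Acot13 added, an alternative chosen after seeing the data. At a 1.5-fold threshold the count was 3 in HFHFr-F against control and 3 in HFHFr-FA against HFHFr-F (Acot1, Acot6 and Acot9), 3 in HFHFr-N against HFHFr-F (Acot1, Acot2 and Acot9), 1 in HFHFr-N against control (Acot6), 1 in HFHFr-FA against control and 1 in HFHFr-NA against control (Acot2 in both). Over all genes that threshold was passed by 1696 higher and 1721 lower of 14631 in HFHFr-F against control, 1483 and 1297 of 14928 in HFHFr-FA against HFHFr-F, 1359 and 1350 of 14801 in HFHFr-N against HFHFr-F, 630 and 535 of 14507 in HFHFr-N against control, 1696 and 1263 of 14797 in HFHFr-FA against control and 1179 and 925 of 14728 in HFHFr-NA against control. Acot1 ranged from -1.19 to -1.09 in HFHFr-F against control and from 1.24 to 1.47 in HFHFr-FA against HFHFr-F. Of 504 single-member ratios over 8 alternatives, 15 had another sign than the reported one, none where that was over 0.2. These 504 include the ratios without the detection filter, which equal the reported ones. Over all genes, higher genes made up 62.5% of those 2-fold apart in HFHFr-F against control (73.7% with cyclic loess and 49.9% without the detection filter), 49.8% in HFHFr-FA against HFHFr-F (35.9% with median centring), 37.0% in HFHFr-N against HFHFr-F (24.7% with cyclic loess, 25.8% with median centring and 54.7% without the detection filter), and 70.1% in HFHFr-FA against control (53.2% without that filter). Cyclic loess moved the median of all genes from -0.08 to 0.02 in HFHFr-F against control. No paired analysis was possible because each group was 1 array, and for the same reason no replicate could be left out. The slide as a block was not run, since HFHFr-FA was the only array on its slide. Acot6, Acot10 and Acot11 were limited by dim signal.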
